A study of Mus musculus with 10 samples.

Results

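The 9 myosin light chain genes described here were chosen by symbol, and all 9 were found among 14626 genes with a deposited value in every library. They are the 4 cardiac chains Myl7, Myl4, Myl2 and Myl3; Myl1, the essential chain of fast skeletal muscle; Myl9, the regulatory chain of smooth muscle; Myl6, an essential chain of smooth muscle and non-muscle cells; and Myl12a and Myl12b, regulatory chains of non-muscle myosin. Myosin light chains are small subunits that wrap around the neck of the myosin heavy chain. Each head carries an essential light chain and a regulatory light chain, and phosphorylation of the regulatory chain tunes contraction. Heart muscle uses different pairs in its chambers: in the postnatal mouse heart Myl7 and Myl4 are the regulatory and essential chains of the atria, and Myl2 and Myl3 those of the ventricles.

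RNA was sequenced from hearts of 5 Lmna KO mice and 5 WT mice at postnatal day 14, all on the C57BL/6 background, with each library from a separate animal. Lmna encodes lamins A and C of the nuclear envelope, and the KO mice are Lmna -/-, with the construction of the allele not stated in the labels. The groups therefore compare the knockout heart with the wild-type heart, at a single age and with no treatment. The labels give the tissue as heart and do not state which chambers were taken. Values are the authors' signals, which are counts scaled to the effective library size (CPM).

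Lmna signal was 38.4, 22.1, 30.3, 28.7 and 48.9 in Lmna KO replicates 1 to 5, against 102.3 to 110.1 in the WT libraries. Each KO library was below every WT library. Libraries held 15259545 to 22146030 reads. Lmna KO replicates 5 and 2 stood apart from the rest: their expression correlated with the WT libraries at a mean r of 0.905 and 0.962, against 0.982 to 0.985 for the other KO libraries and 0.989 to 0.991 for WT libraries among themselves. The changes and ratios of the light chains are also given without replicate 5. In these bulk samples fewer cells of a type and less RNA per cell cannot be told apart.

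The genes lie on 7 chromosomes of mm10, each at the position given in the authors' table. Myl7 is at chr11:5896637-5898782 and Myl4 at chr11:104550663-104587219, Myl2 at chr5:122100980-122106854 and Myl3 at chr9:110763681-110769794. Myl1 is at chr1:66924296-66945056, Myl6 at chr10:128490861-128493825 and Myl9 at chr2:156775464-156781657. Myl12b, at chr17:70973963-70990516, and Myl12a, at chr17:70993793-71002533, are neighbours on the same strand. All 9 are protein-coding genes.

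The 250 bases before the transcription start of both atrial chains and of the ventricular essential chain are shown because Myl7 and Myl4 moved together across the libraries while the Myl3 values did not follow theirs. The sequences are from RefSeq, build GRCm38.p6, written 5′ to 3′ on the strand of the gene. Capitals mark a CArG box, the sequence class bound by serum response factor.
Myl7 (chr11:5898783-5899032, minus strand): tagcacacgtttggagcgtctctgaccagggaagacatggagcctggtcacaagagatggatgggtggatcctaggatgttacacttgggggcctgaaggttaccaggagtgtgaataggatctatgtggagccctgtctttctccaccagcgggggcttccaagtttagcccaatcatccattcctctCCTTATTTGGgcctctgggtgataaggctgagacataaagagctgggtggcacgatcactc
Myl4 (chr11:104550413-104550662, plus strand): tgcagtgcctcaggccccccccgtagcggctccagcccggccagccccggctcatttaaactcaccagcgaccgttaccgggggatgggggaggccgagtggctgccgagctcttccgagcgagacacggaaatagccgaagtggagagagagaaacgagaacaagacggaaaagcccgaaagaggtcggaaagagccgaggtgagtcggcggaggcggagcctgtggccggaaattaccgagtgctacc
Myl3 (chr9:110763428-110763677, plus strand): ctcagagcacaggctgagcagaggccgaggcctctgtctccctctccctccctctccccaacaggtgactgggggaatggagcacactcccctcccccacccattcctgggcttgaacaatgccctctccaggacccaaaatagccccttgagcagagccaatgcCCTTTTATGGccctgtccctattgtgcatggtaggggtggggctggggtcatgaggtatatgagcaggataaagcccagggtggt
The Myl7 window holds CCTTATTTGG, which starts 61 bases before the start site, and the Myl3 window holds CCTTTTATGG, 85 bases before it. The Myl9 window holds CCTAATAAGG, 161 bases before its start, and no CArG box was matched in the windows of Myl4, Myl1, Myl12a or Myl12b. Of 32851 mouse promoter windows of 300 bases, 1.63% hold a CArG box. The MEF2 site, in 3.19% of all windows, and the 6-base sequences AGATAA (11.2%) and AGGTGT (13.7%) were searched on both strands and matched in none of these 7 windows. TATAAA, in 13.6% of all windows, matched in Myl1 alone, on the opposite strand 95 bases before the start. A match of letters is a description of the window. The RefSeq windows of Myl2 and Myl6 do not begin at the deposited gene starts and were not used.

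Per kilobase of exon, the ventricular chains stood far above the others in both genotypes. Signal per kilobase averaged 6932 ± 2459 for Myl2 and 3288 ± 860 for Myl3 in Lmna KO hearts, against 9783 ± 322 for Myl2 and 3934 ± 127 for Myl3 in WT hearts (SD, n = 5 each). Myl12a was next, at 319 ± 99.6 per kilobase in KO hearts and 235 ± 22.6 per kilobase in WT hearts. In KO hearts Myl6 followed at 80.8 ± 17.0, Myl12b at 71.5 ± 16.6, Myl7 at 63.6 ± 54.7, Myl9 at 56.6 ± 26.9, Myl4 at 36.6 ± 33.7 and Myl1 at 10.2 ± 5.51 per kilobase. The ranges of neighbours in this stretch of the KO order overlapped. In WT hearts Myl6 followed at 103 ± 3.46, Myl12b at 61.7 ± 4.69, Myl9 at 60.5 ± 7.71, Myl1 at 13.5 ± 5.66, Myl4 at 2.11 ± 0.178 and Myl7 at 0.494 ± 0.317 per kilobase. Among WT neighbours, Myl12b and Myl9 were the pair whose levels did not differ beyond their spread. Myl7 thus took the sixth place in KO hearts and the last in WT hearts.

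Myl7, the atrial regulatory chain, was well above the WT level in 4 of 5 KO libraries and nearly absent from WT libraries. Its signal was 54.8, 36.9, 13.9, 0.375 and 81.5 in Lmna KO replicates 1 to 5, from 1226, 641, 268, 7 and 1605 reads. In WT replicates 1 to 5 it was 0.0672, 0.418, 0.134, 0.510 and 0.329, from 1, 9, 2, 10 and 6 reads. KO replicates 1, 2, 3 and 5 were above every WT library, while KO replicate 4 lay inside the WT range, so the groups overlap. The mean was 37.5 ± 32.3 in KO hearts and 0.291 ± 0.187 in WT hearts (SD, n = 5 each), a ratio of means of 129. Over KO replicates 1 to 4 the mean was 26.5 ± 24.2.

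Myl4, the atrial essential chain, ranked the KO libraries in the same order as Myl7 and had a higher WT level. Its signal was 50.2, 45.0, 15.5, 2.36 and 107 in Lmna KO replicates 1 to 5, against 2.49, 2.23, 2.67, 2.498 and 2.79 in WT replicates 1 to 5. Again replicates 1, 2, 3 and 5 were above every WT library and replicate 4 was inside the WT range. The mean was 44.0 ± 40.5 in KO hearts and 2.54 ± 0.214 in WT hearts (SD, n = 5 each), a ratio of means of 17.4, and over KO replicates 1 to 4 it was 28.3 ± 23.1. Having at least 4 of 5 KO libraries above every WT library was common in these data: 12.5% of the 12855 genes tested did.

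In the limma fit across the 12855 genes whose signal averaged 1 or more, neither atrial chain passed an adjusted p of 0.05. Changes are KO minus WT in log2(signal + 0.5), and for a gene as low as Myl7 in WT hearts the added 0.5 makes the change look smaller. Myl7 was 4.58 ± 0.99 (SE) higher, with an adjusted p of 0.0776, and Myl4 was 3.09 ± 0.76 higher, with an adjusted p of 0.0972. None of the 9 light chains passed in this fit, in which 0.202% of all genes were called. At an unadjusted p under 0.05 there were 5 of the 9, against 20.8% of all genes.

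The call for Myl7 turned on which KO library was included. Without KO replicate 4, Myl7 was 5.68 higher (limma adjusted p = 4.97e-04) and Myl4 3.88 higher (limma adjusted p = 0.0106), with 0.303% of all genes called and 0.21% called higher. KO replicate 4 was the KO library lowest for both genes, so leaving it out selects on the tested values. The p values of that fit are therefore given as a description. Without KO replicate 1, 2 or 3, Myl7 was not called (limma adjusted p = 0.0925, 0.0990 and 0.115). Without KO replicate 5, the library farthest from the rest, Myl7 was 4.04 ± 0.95 (SE) higher (limma adjusted p = 0.0371) and Myl4 was 2.57 ± 0.67 higher (limma adjusted p = 0.0510). In that fit Myl7 was the single light chain called, where 4.98% of all genes were called and 2.27% were called higher. On reads recovered from the signals, edgeR's quasi-likelihood test called Myl7 (adjusted p = 0.0405) and not Myl4 (adjusted p = 0.0629), with 0.156% of all genes called and 0.101% called higher. DESeq2 called Myl7 (adjusted p = 1.46e-08) and Myl4 (adjusted p = 1.87e-05), with 6.11% of all genes called and 3.61% called higher. In the authors' deposited table, KO over control, Myl7 had a log2 ratio of 6.95 with an FDR of 4.62e-11 and Myl4 a log2 ratio of 4.12 with an FDR of 1.70e-08. That table calls 5.52% of its genes at an FDR under 0.05, with 3.93% of its genes called higher, and none of the other 7 light chains.

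**Figure D1:**
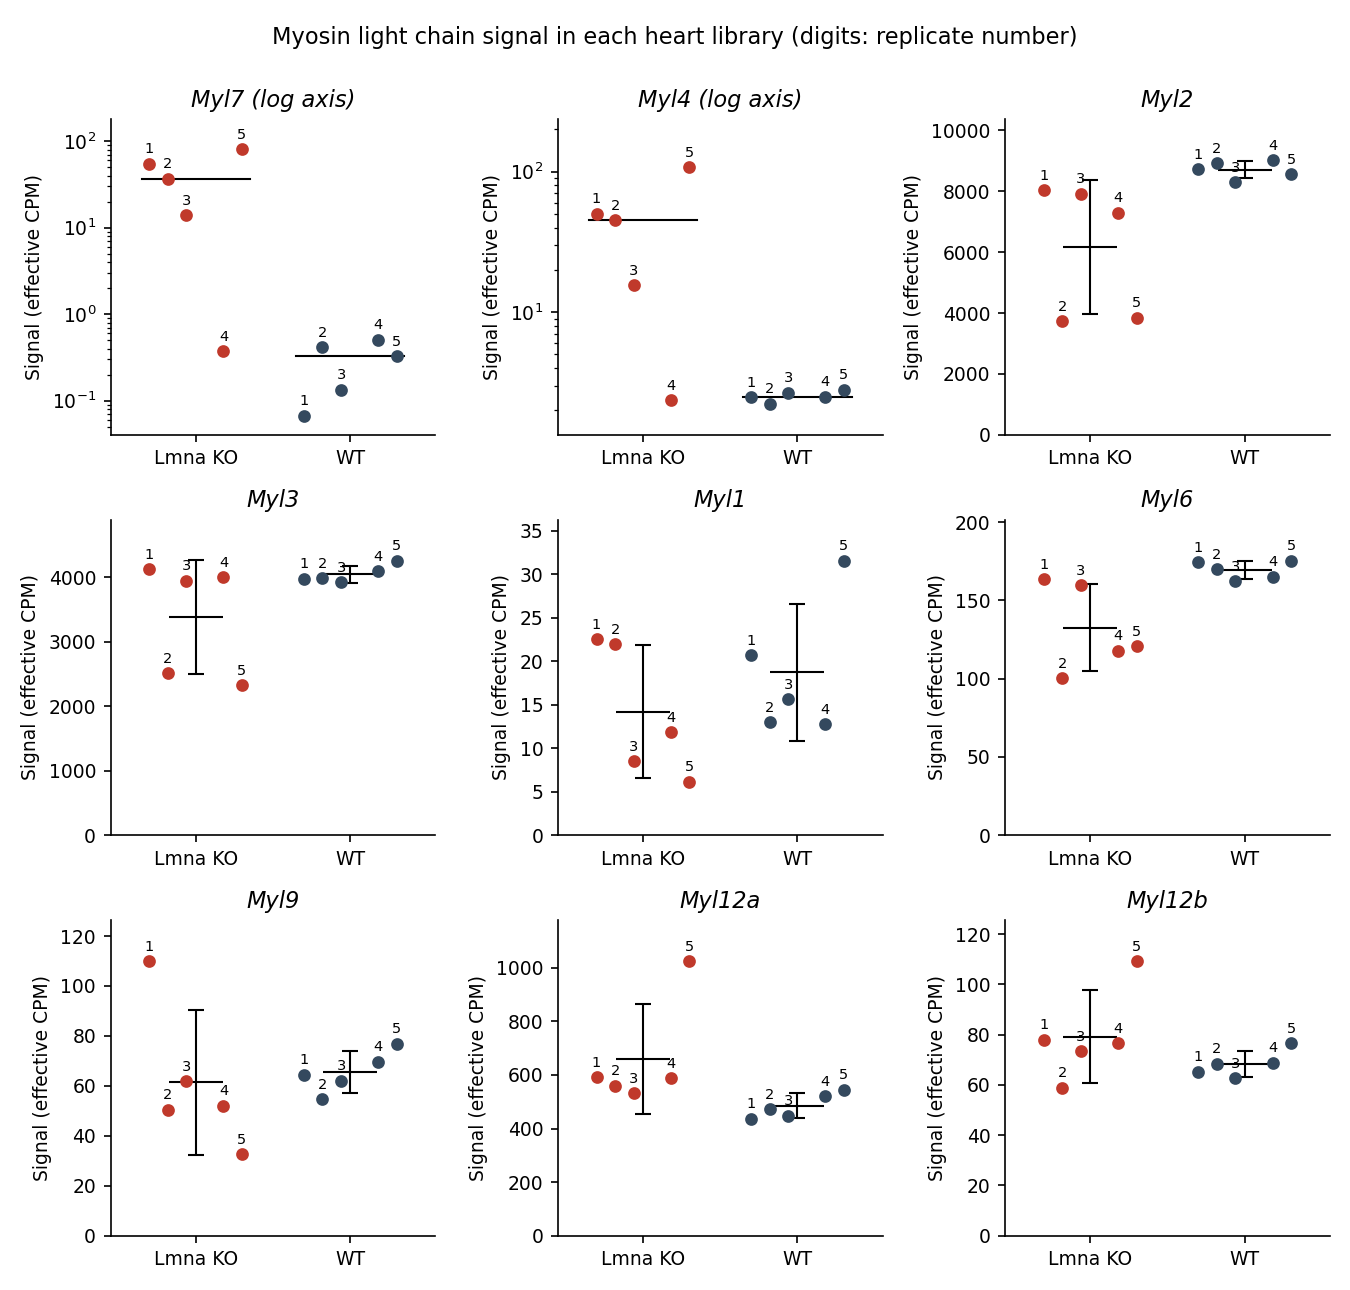
Signal of the 9 light chains (vertical axes, CPM of the effective library size) in each Lmna KO and WT library, with the replicate number beside each point. Horizontal lines are the median for Myl7 and Myl4, on log axes, and the mean with SD bars elsewhere. KO replicate 4 sits with the WT libraries for Myl7 at 0.375 and for Myl4 at 2.36.

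The spread among KO hearts was itself a feature of the atrial chains. The SD of log2(signal + 0.5) over the 5 KO libraries was 2.63 for Myl7 and 2.03 for Myl4, each larger than that of 99.9% of the genes tested. The median gene had an SD of 0.312 in KO libraries and 0.119 in WT libraries. Over the WT libraries the SD of Myl4 was 0.103, near that median. The WT SD of Myl7 was 0.354, from at most 10 reads a library.

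The two-sided exact permutation test of each within-library ratio compares 5 with 5 libraries, and its smallest possible p is 0.00794. Ratios within a library do not depend on its scaling. They are ratios of signals, not of levels per length, so their size is read between libraries and not as a ratio of molecules. Benjamini-Hochberg adjustment was over the 4 ratios computed.

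The regulatory pair shifted towards the atrial chain in 4 of 5 KO hearts. Myl7 was 0.682%, 0.989%, 0.175%, 0.00514% and 2.12% of the Myl2 signal in Lmna KO replicates 1 to 5, against 0.000770% to 0.00566% in WT libraries. The log2 ratio averaged -8.56 ± 3.43 in KO hearts and -15.21 ± 1.21 in WT hearts (SD, n = 5 each). The difference was 6.65 ± 1.63 (SE), with an exact permutation p of 0.0159 and an adjusted p of 0.0317. Replicate 4 was again inside the WT range.

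The essential pair moved in the same direction and in the same 4 KO libraries. Myl4 was 1.22%, 1.79%, 0.393%, 0.0590% and 4.62% of the Myl3 signal in Lmna KO replicates 1 to 5, against 0.0559% to 0.0681% in WT libraries. The log2 ratio averaged -7.06 ± 2.41 in KO hearts and -10.64 ± 0.11 in WT hearts (SD, n = 5 each). The difference was 3.58 ± 1.08 (SE), with an exact permutation p of 0.0397 and an adjusted p of 0.0397. Leaving out KO replicate 5, the differences were 5.90 for Myl7 to Myl2 and 2.92 for Myl4 to Myl3, with exact permutation p values of 0.0159 and 0.0397.

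Even where they were highest, the atrial chains were a small part of the cardiac light chain RNA. Myl7 and Myl4 together made up 0.856%, 1.29%, 0.247%, 0.0242% and 2.96% of the summed signal of Myl2, Myl3, Myl4 and Myl7 in Lmna KO replicates 1 to 5. In WT libraries they made up 0.0201% to 0.0244%. The mean share was 1.08% ± 1.17 in KO hearts and 0.0222% ± 0.00181 in WT hearts (SD, n = 5 each). KO replicate 5 weighed heavily on it: over KO replicates 1 to 4 the share was 0.605% ± 0.578, a difference from WT of 0.583 percentage points, against 1.06 with all libraries. The summed signal of these 4 chains was 12269, 6326, 11895, 11300 and 6363 in KO replicates 1 to 5 and 12224 to 13105 in WT libraries.

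The balance between the 2 atrial chains also differed between the genotypes. Myl7 was 109%, 82.1%, 89.6%, 15.9% and 76.1% of the Myl4 signal in Lmna KO replicates 1 to 5, against 2.70% to 20.4% in WT libraries. The log2 ratio differed by 2.79 ± 0.76 (SE) between KO and WT hearts, with an exact permutation p of 0.0238 and an adjusted p of 0.0317. It was 2.72 without KO replicate 5 (exact permutation p = 0.0317), and 1.49 when 0.5 was added to both signals (exact permutation p = 0.0238). The WT side of this ratio rests on 28 Myl7 reads and 225 Myl4 reads over the 5 libraries. Taking off the WT mean of each gene, the excess of Myl7 over the excess of Myl4 was 1.14, 0.863, 1.05 and 0.777 in KO replicates 1, 2, 3 and 5. These are ratios of signals, and they varied less among the 4 libraries than the Myl7 signal itself, which ranged from 13.9 to 81.5.

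The ratio within the ventricular pair differed by less, and without overlap. Myl3 was 51.3%, 67.3%, 49.8%, 54.8% and 60.2% of the Myl2 signal in Lmna KO replicates 1 to 5, against 45.5%, 44.6%, 47.3%, 45.4% and 49.6% in WT replicates 1 to 5. The 5 KO libraries were all above the 5 WT libraries, by a margin of 49.81% in KO replicate 3 against 49.61% in WT replicate 5 at the nearest point. The log2 ratio was 0.28 ± 0.08 (SE) higher in KO hearts, with an exact permutation p of 0.00794, the smallest the design allows, and an adjusted p of 0.0317. The difference was 0.25 without KO replicate 5, with an exact permutation p of 0.00794.

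**Figure D2:**
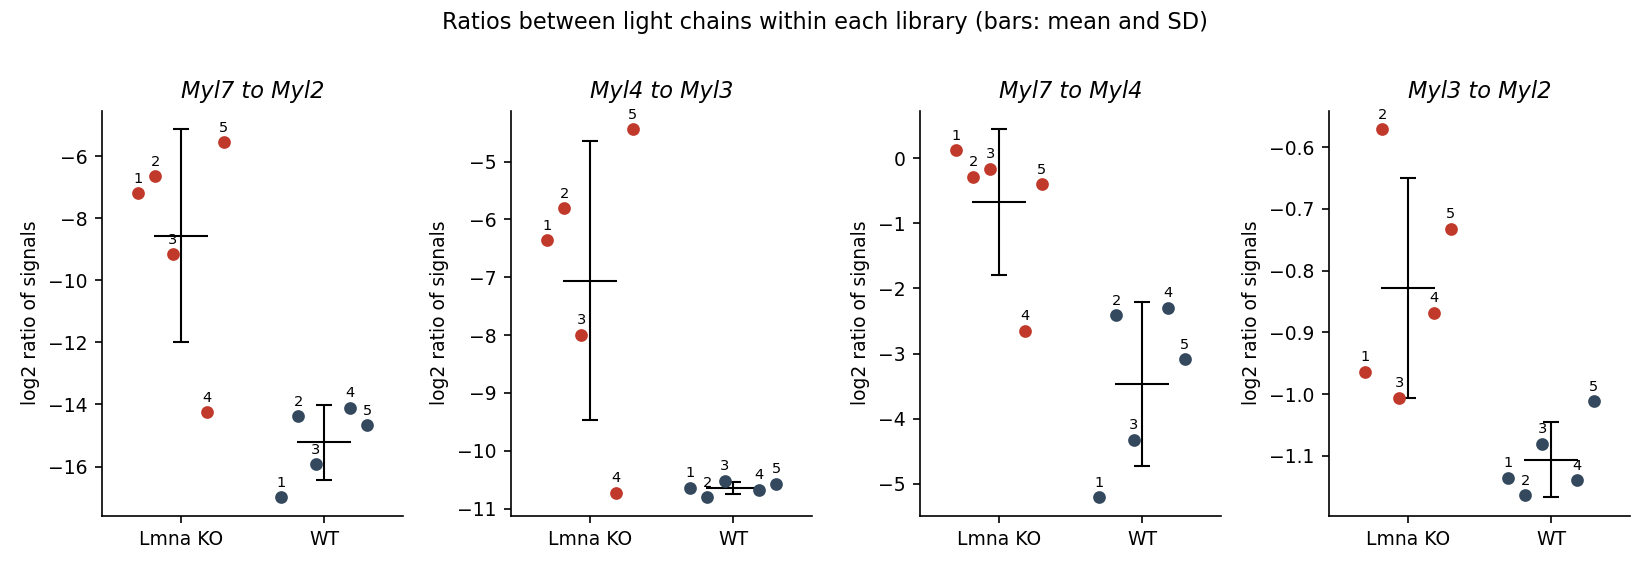
Log2 ratio of signals within each library for 4 pairs of light chains, Lmna KO left and WT right, with the replicate number beside each point and the mean with SD as bars. In the panels with an atrial chain KO replicate 4 lies among the WT libraries, and in the Myl3 to Myl2 panel the genotypes do not overlap.

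Markers of atrial muscle were read in the same libraries, from a list of 15 genes without the light chains. Their summed signal was 489 to 568 in Lmna KO replicates 1 to 4 and 7831 in KO replicate 5, against 352 to 413 in WT libraries. Without Nppa, atrial natriuretic peptide, the sum was 390 to 429 in KO replicates 1 to 4 and 1065 in KO replicate 5, against 327 to 356 in WT libraries. Of the 15 markers, 6, 7, 8, 9 and 9 were above every WT library in KO replicates 1 to 5, and 2, 2, 2, 2 and 4 were below every WT library. Of all 14626 genes, 24.0%, 34.6%, 24.5%, 27.8% and 40.7% were above and 23.9%, 35.3%, 24.9%, 27.4% and 40.4% were below every WT library in the same KO replicates.

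Individual markers divided into those that followed the atrial chains and those that did not. Sln, sarcolipin, the regulator of the calcium pump in atrial muscle, was 10.2, 17.4, 1.92, 0 and 16.2 in Lmna KO replicates 1 to 5, and 0 to 0.153 in WT libraries. Fgf12, a fibroblast growth factor family protein that binds sodium channels, was 2.55, 5.24, 0.778, 0.643 and 8.89 in KO replicates 1 to 5, and 0.204 to 0.557 in WT libraries. Sln therefore had the light chains' pattern, replicate 4 included, while Fgf12 was above every WT library in all 5 KO libraries. At least 4 KO libraries were above every WT library for 12.5% of all genes tested. Kcnj3 and Gja5 were below every WT library in some KO libraries and within the WT range in the others. Kcnj3 differed from its WT mean by -0.50, 0.24, -0.54, -0.48 and -1.67 on the log2 scale in KO replicates 1 to 5. It was within the WT range in KO replicate 2 alone. Gja5 differed by 0.15, 0.23, -0.08, -0.60 and -0.84 in the same order. It was below every WT library in KO replicates 4 and 5 alone. In KO replicate 5 the 4 markers below every WT library were Kcnj3, Gja5, Kcna5 and Nr2f1.

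Nppa was 135, 125, 84.4, 146 and 6767 in Lmna KO replicates 1 to 5, and 24.9 to 71.2 in WT libraries. It was higher than every WT library in KO replicate 4, where Myl7 and Myl4 were not. Bmp10, a growth factor of the right atrium, was 0, 0.0576, 0, 0.0536 and 17.3 in KO replicates 1 to 5 and 0 in all 5 WT libraries. Bmp10 was thus at or near 0 in KO replicates 1 and 2, where Myl7 was 54.8 and 36.9.

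In the fit across all genes none of the 13 atrial markers tested was called, with a median log2 change of 0.52, against -0.0097 for all genes. The median was 0.24 without KO replicate 5, and in that fit Nppa, Clu and Adm rose. Of all genes, 4.98% were called in that fit and 2.27% were called higher. Nppa was 1.504 higher (limma adjusted p = 0.0160), Clu, the chaperone clusterin, 0.61 higher (limma adjusted p = 0.0160), and Adm, adrenomedullin, 0.38 higher (limma adjusted p = 0.0436). Sln, 2.80 higher, and Fgf12, 1.43 higher, had limma adjusted p values of 0.0722 and 0.0691 in that fit. Defining atrial genes at 0 were Bmp10 in KO replicate 1, Bmp10 and Dhrs9 in KO replicate 3, Sln in KO replicate 4, and, in WT libraries, Bmp10 in all 5 and Sln in replicates 1 and 5. Atrial tissue in the samples was not stated by the labels, and its part in the light chain values was not tested.

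**Figure D3:**
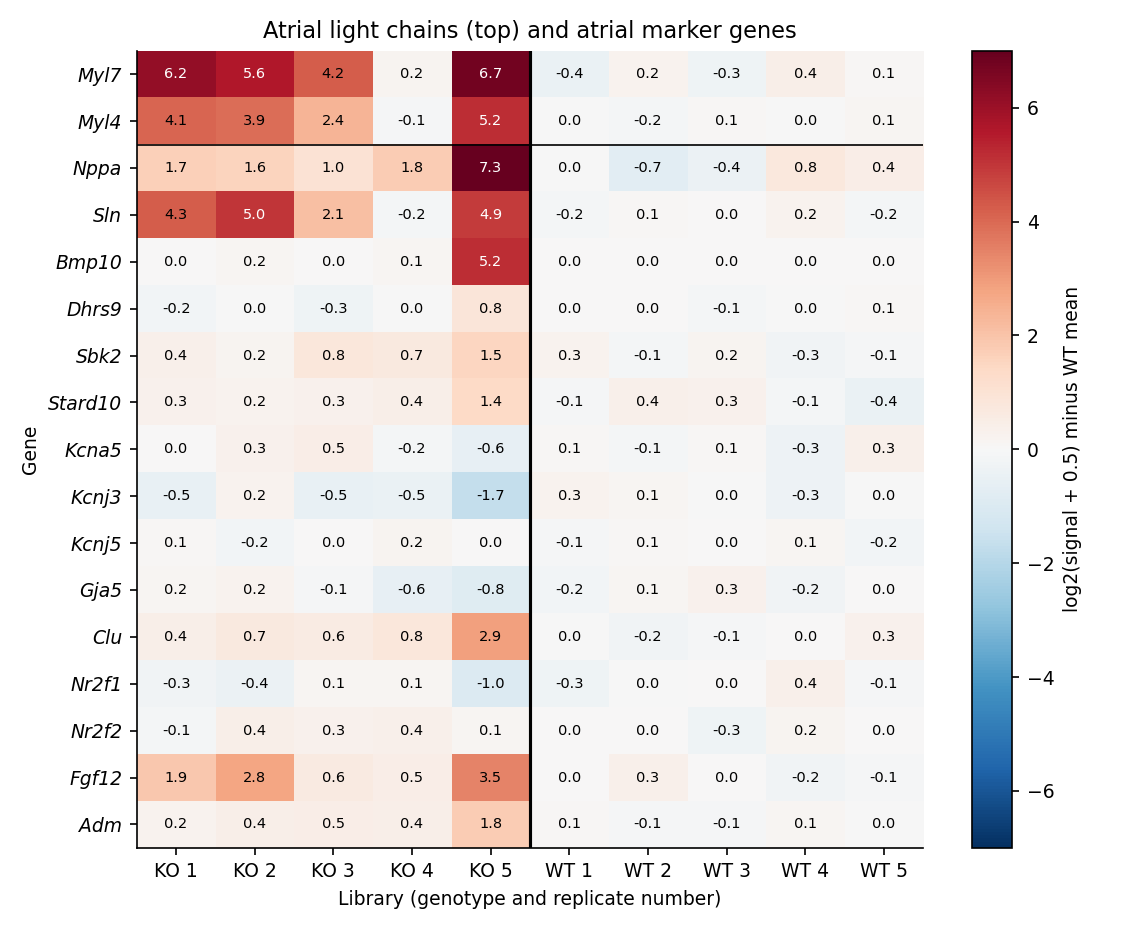
Difference of log2(signal + 0.5) from the WT mean for Myl7 and Myl4 (top) and the 15 atrial markers (rows) in the 5 Lmna KO and 5 WT libraries (columns). Colours and printed values show the same differences, in which Sln has the pattern of the light chains, with KO replicate 4 at the WT level, and Bmp10 is high in KO replicate 5 alone.

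Myl2 and Myl3, the ventricular chains, were lowest in KO replicates 2 and 5. Myl2 signal was 8041, 3732, 7921, 7299 and 3854 in Lmna KO replicates 1 to 5, against 8727, 8926, 8297, 9012 and 8570 in WT replicates 1 to 5. All 5 KO libraries were below every WT library, as were 6.18% of all genes tested. The mean was 6169 ± 2188 in KO hearts and 8707 ± 286 in WT hearts (SD, n = 5 each). The log2 change of -0.58 ± 0.26 (SE) had a limma adjusted p of 0.229, and it was -0.43 without KO replicate 5 (limma adjusted p = 0.253).

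Myl3 signal was 4123, 2513, 3945, 3998 and 2320 in Lmna KO replicates 1 to 5, against 3972, 3985, 3924, 4090 and 4251 in WT replicates 1 to 5. Replicates 2 and 5 were below every WT library, and the other 3 KO libraries were within the WT range. The mean was 3380 ± 884 in KO hearts and 4045 ± 130 in WT hearts (SD, n = 5 each), and the log2 change of -0.30 ± 0.19 (SE) had a limma adjusted p of 0.372. It was -0.18 without KO replicate 5 (limma adjusted p = 0.511). In the authors' deposited table the log2 ratio of KO over control was -0.50 for Myl2 (FDR 0.199) and -0.26 for Myl3 (FDR 0.505).

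Across WT libraries both ventricular chains were steadier than most genes. Their SD on the log2 scale was 0.048 for Myl2 and 0.046 for Myl3, with 6.64% and 5.94% of tested genes having a smaller one. Each had at least 58764 reads in every WT library, and counting adds more spread to genes with few reads. The comparison was not limited to genes of like abundance. In KO libraries the SD was 0.57 for Myl2 and 0.41 for Myl3.

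The medians of the general cardiomyocyte markers and of the sarcomere partners were lowest in the same libraries as Myl2 and Myl3. Over 15 general cardiomyocyte markers the median difference from the WT mean was -0.07, -0.80, -0.17, -0.16 and -0.69 on the log2 scale in Lmna KO replicates 1 to 5. Over 14 sarcomere partners of the thick filament it was -0.10, -0.91, -0.16, -0.17 and -0.42. The lists are not separate, since Actc1, Tnnt2, Tnni3, Tnnc1, Ttn, Actn2 and Mybpc3 are in both. The medians do not hold for each gene. Of the 15 markers, 12 were below and 0 above every WT library in KO replicate 2, while 10 were below and 5 above in KO replicate 5. Of the 14 partners, 11 were below and 2 above in KO replicate 2, and 9 were below and 5 above in KO replicate 5. Of all 14626 genes, 35.3% were below and 34.6% above every WT library in KO replicate 2. The shares were 40.4% below and 40.7% above in KO replicate 5. Whether the amount of muscle in those samples bears on the light chain values was not tested.

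No gene of these lists was called in the fit of all 10 libraries, with median log2 changes of -0.43 for the cardiomyocyte markers and -0.36 for the sarcomere partners. When KO replicate 5 was left out the medians were -0.34 and -0.32, and Ryr2, the calcium release channel, fell by 0.53 (limma adjusted p = 0.0291). That fit called 4.98% of all genes. Titin, Ttn, had a mean signal of 53650 ± 14766 in KO hearts and 75980 ± 5032 in WT hearts (SD, n = 5 each). Its limma adjusted p was 0.333 in all 10 libraries. Cardiac actin, Actc1, averaged 6618 ± 3658 in KO hearts and 9773 ± 859 in WT hearts, with a limma adjusted p of 0.349. Atp2a2, the calcium pump, was below every WT library in all 5 KO libraries, with means of 9297 ± 2676 in KO hearts and 14444 ± 1081 in WT hearts, and a limma adjusted p of 0.176. All 5 KO libraries were below every WT library for 6.18% of all genes tested.

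None of the 10 ventricular markers tested was called in all 10 libraries, with a median of -0.052. Without KO replicate 5 the median was -0.035 and Fhl2, a LIM domain protein of heart muscle, fell by 0.70 (limma adjusted p = 0.0120). That fit called 4.98% of all genes. Pln, phospholamban, averaged 7083 ± 1243 in KO hearts and 7273 ± 511 in WT hearts (SD, n = 5 each). Over the 10 markers the median log2 difference from the WT mean was -0.21, 0.06, -0.16, 0.03 and -0.35 in KO replicates 1 to 5. It was thus lowest in KO replicate 5 and highest in KO replicate 2, where Myl2 was lowest.

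**Figure D4:**
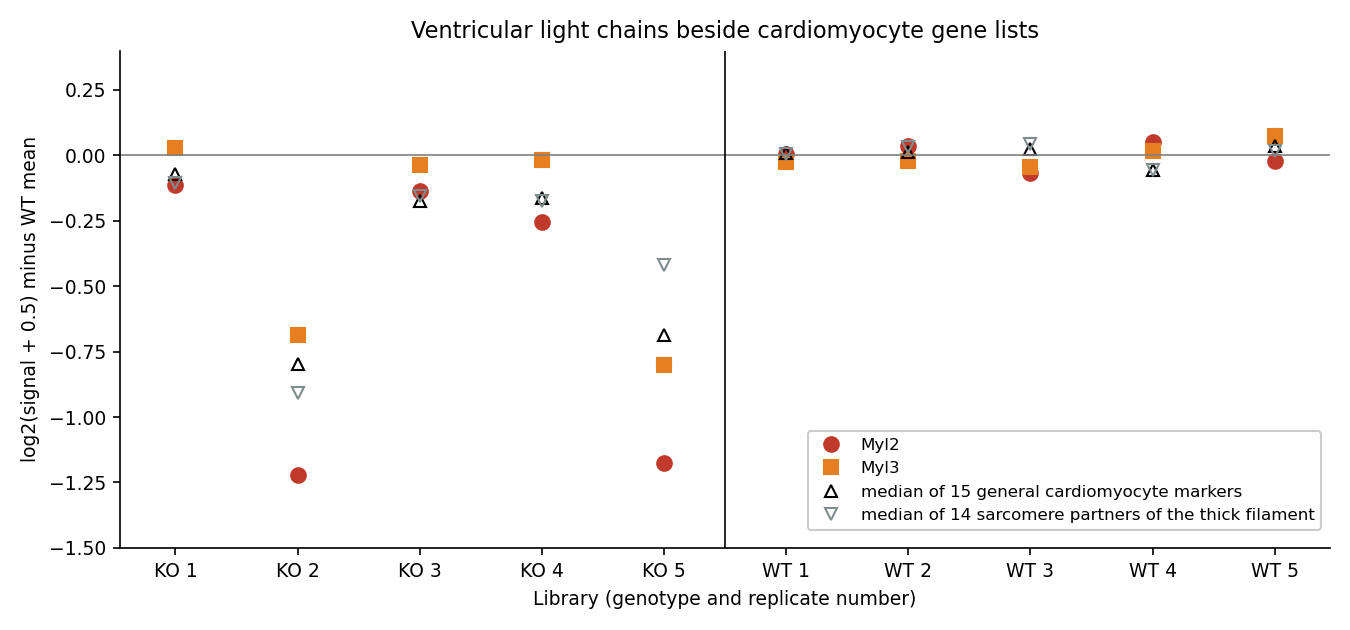
Difference of log2(signal + 0.5) from the WT mean in each Lmna KO and WT library (horizontal axis) for Myl2 and Myl3, beside the medians of 15 general cardiomyocyte markers and 14 sarcomere partners. All 4 are lowest in KO replicates 2 and 5, with Myl2 below Myl3 in every KO library. The marker and partner lists share genes such as Ttn and Actc1.

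Myl1, the fast skeletal essential chain, was low and variable in both genotypes. Its signal was 22.6, 22.0, 8.51, 11.8 and 6.15 in Lmna KO replicates 1 to 5, against 20.7, 13.0, 15.6, 12.8 and 31.6 in WT replicates 1 to 5. The log2 change was -0.47 ± 0.37 (SE), with a limma adjusted p of 0.458, and it was -0.23 without KO replicate 5 (limma adjusted p = 0.719). Its WT SD of 0.53 was larger than that of 98.7% of the genes tested. Of 15 fast skeletal muscle markers, 9 were among the genes with a value, and 3 passed the filter on mean signal. None of the 3 was called with or without KO replicate 5, with medians of -0.25 and -0.31.

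Myl6, the essential chain shared by smooth muscle and non-muscle cells, was 164, 100.5, 160, 118 and 121 in Lmna KO replicates 1 to 5, and 162 to 175 in WT libraries. It was below every WT library in 4 of 5 KO libraries, as were at least 4 KO libraries for 15.0% of all genes. The log2 change was -0.38 ± 0.13 (SE), with a limma adjusted p of 0.160, and it was -0.35 without KO replicate 5 (limma adjusted p = 0.146). Myl9, the smooth muscle regulatory chain, was 110, 50.4, 61.9, 52.0 and 32.5 in KO replicates 1 to 5 and 54.6 to 76.9 in WT libraries. KO replicate 1 was above and KO replicates 2, 4 and 5 were below every WT library. Its log2 change was -0.20 ± 0.25 (SE), with a limma adjusted p of 0.662, and it was -0.0017 without KO replicate 5 (limma adjusted p = 0.997).

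The median of the smooth muscle and pericyte markers was near the WT level in KO replicate 1, where Myl9 was highest. The median difference of 15 such markers from the WT mean was 0.07, -0.31, 0.01, -0.05 and -0.32 on the log2 scale in Lmna KO replicates 1 to 5. In KO replicate 1, 6 of the 15 were above and 2 below every WT library, against 24.0% and 23.9% of all genes. The summed signal of the markers was 4025, 3514, 3611, 3886 and 5820 in KO replicates 1 to 5, against 3646 to 3978 in WT libraries. The sum was highest in KO replicate 5, where 4 of the 15 were above and 9 below every WT library. Of all genes, 40.7% were above and 40.4% below in that replicate. None of the 15 markers was called with or without KO replicate 5, with median changes of -0.050 and -0.063. Des, desmin, averaged 1874 ± 1274 in KO hearts and 1241 ± 83.7 in WT hearts, and Abcc9, a potassium channel subunit, 811 ± 154 in KO hearts and 827 ± 47.8 in WT hearts (SD, n = 5 each).

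The non-muscle regulatory chains were highest in KO replicate 5. Myl12a was 591, 559, 533, 587 and 1025 in Lmna KO replicates 1 to 5, against 437, 473, 448, 521 and 545 in WT replicates 1 to 5. Replicates 1, 2, 4 and 5 were above every WT library, as were at least 4 KO libraries for 12.5% of all genes. Its log2 change of 0.40 ± 0.17 (SE) had a limma adjusted p of 0.218, and it was 0.23 ± 0.08 without KO replicate 5 (limma adjusted p = 0.135). Myl12b was 78.0, 58.8, 73.4, 76.5 and 109 in KO replicates 1 to 5 and 62.7 to 76.5 in WT libraries, with a log2 change of 0.19 ± 0.14 (SE) and a limma adjusted p of 0.452. Its change was 0.063 without KO replicate 5 (limma adjusted p = 0.739).

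Reads of Myl12a and Myl12b may have been divided between these genes by the authors' counting. In the annotation used here 18.8% of the 50-base windows of Myl12a transcripts also occur in Myl12b, and 20.7% of those of Myl12b occur in Myl12a. The exons of this pair overlap by 462 bases on the same strand. Myl6 shares 16.7% of its windows with other genes, most of them with Gm5526, and Myl1 shares 16.0% with Mylf-ps. Myl3 shares 4.19%, Myl2 1.06% and Myl4 0.122%, while Myl7 and Myl9 share 0. Exons of Myl12a also overlap Myom1 by 207 bases, those of Myl3 overlap Pth1r by 95 bases and those of Myl2 overlap Ccdc63 by 60 bases, in each case on the opposite strand. Whether counting used the strand is not given in the sources used here.

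Mylpf, the fast skeletal regulatory chain, and Myl6b, an essential chain of slow skeletal muscle and non-muscle cells, were below the filter on mean signal. Mylpf averaged 0.571 ± 0.271 in Lmna KO hearts and 0.484 ± 0.095 in WT hearts, and Myl6b 0.481 ± 0.168 in KO hearts and 0.518 ± 0.149 in WT hearts (SD, n = 5 each). Myl10 was not analysed here.

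The myosin heavy chains that the light chains bind were tested as a list of 7 genes. None was called in all 10 libraries, with a median change of -0.30. Myh7, the slow heavy chain of the fetal ventricle, was 150, 81.0, 187, 414 and 64424 in Lmna KO replicates 1 to 5, and 43.4 to 68.5 in WT libraries. All 5 KO libraries were above every WT library, and without KO replicate 5 it rose by 1.66 (limma adjusted p = 0.0267). For 12.5% of all genes at least 4 KO libraries were above every WT library, and 4.98% were called without KO replicate 5. Myh6, the main heavy chain of the adult mouse heart, averaged 31917 ± 14066 in KO hearts and 44400 ± 1868 in WT hearts, with a limma adjusted p of 0.336. Myh9, a non-muscle heavy chain, averaged 246 ± 72.0 in KO hearts and 312 ± 23.0 in WT hearts, with a limma adjusted p of 0.248. The order of KO libraries by Myh7 differed from that by the atrial light chains: replicate 4, lowest for Myl7, was second for Myh7.

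Of 16 kinases, phosphatases and regulators that act on light chains, 15 were tested and none was called in all 10 libraries, with a median of -0.017. Mylk4, a light chain kinase of striated muscle, was 20.1, 22.7, 22.6, 20.9 and 7.67 in Lmna KO replicates 1 to 5, and 25.8 to 59.5 in WT libraries. It was below every WT library in all 5 KO libraries, with a limma adjusted p of 0.0972, and fell by 0.95 without KO replicate 5 (limma adjusted p = 0.0307). All 5 KO libraries were below every WT library for 6.18% of all genes, and 4.98% were called without KO replicate 5. Mylk3, the cardiac kinase of Myl2, averaged 790 ± 197 in KO hearts and 756 ± 21.4 in WT hearts, with a limma adjusted p of 0.964. Ppp1cb, the catalytic subunit of myosin phosphatase, averaged 627 ± 153 in KO hearts and 552 ± 33.7 in WT hearts, with a limma adjusted p of 0.579.

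Among 18 tested regulators of chamber-specific genes, none was called in all 10 libraries, and the median change was 0.20. Hand2, a basic helix-loop-helix factor of the developing heart, was 54.6, 39.3, 37.7, 41.1 and 48.6 in Lmna KO replicates 1 to 5, and 23.0 to 33.8 in WT libraries. It was above every WT library in all 5 KO libraries and rose by 0.64 without KO replicate 5 (limma adjusted p = 0.0251). At least 4 KO libraries were above every WT library for 12.5% of all genes, and 4.98% were called without KO replicate 5. Tbx20, a T-box factor of the heart, averaged 378 ± 111 in KO hearts and 295 ± 14.8 in WT hearts, with a limma adjusted p of 0.330. Mef2a averaged 362 ± 49.7 in KO hearts and 376 ± 13.1 in WT hearts, with a limma adjusted p of 0.744.

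Light chains of the same chamber varied together over the 10 libraries by Pearson's r, and less closely by Spearman's correlation. Pearson's r of log2(signal + 0.5) was 0.989 for Myl7 with Myl4, 0.975 for Myl2 with Myl3 and 0.883 for Myl12a with Myl12b. Spearman's correlation was 0.721 for Myl7 with Myl4 and 0.552 for Myl2 with Myl3. By that measure Myl2 with Myl6 (0.855) and Myl7 with Myl12a (0.770) were higher. These are descriptions, since the libraries share the genotype difference and the outlying replicates. Among 10127 other genes averaging 5 or more, those most like Myl7 were Dkk3 (r = 0.978), Qrich1 (0.969) and Vat1 (0.957). The same 3 were most like Myl4, with r of 0.987 for Dkk3, 0.968 for Vat1 and 0.957 for Qrich1. Dkk3, a secreted protein of the dickkopf family, was 34.6, 36.3, 23.5, 10.7 and 65.6 in Lmna KO replicates 1 to 5, and 8.87 to 12.3 in WT libraries. Like Myl7 and Myl4, it lay inside the WT range in KO replicate 4. Dkk3 was picked for its likeness to them in these libraries, so a shared pattern follows from the choice. Leaving out KO replicate 5, the r of Dkk3 was 0.987 with Myl7 and 0.983 with Myl4.

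The genes most like Myl2 were Arap3 (r = 0.995), Acadvl (0.992) and Parp1 (0.990), and those most like Myl3 were Poll (0.981), Mrpl28 (0.980) and Coq7 (0.980). Acadvl, the very-long-chain acyl-CoA dehydrogenase of mitochondria, was 1241, 642, 1198, 1236 and 663 in Lmna KO replicates 1 to 5, and 1381 to 1426 in WT libraries. It was lowest in the same KO libraries as Myl2, replicates 2 and 5, and it was picked for its likeness to Myl2. By Spearman's correlation other genes led each of these lists, so the neighbours depend on the measure of likeness.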

How the data were processed

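Total RNA of 10 hearts was isolated with a miRNeasy Mini Kit and prepared with a TruSeq kit, per the labels. The submitters' processing notes name TopHat2, Cufflinks, edgeR and mm10, with no versions; the counter, its use of strand and the authors' filter were not stated there. The deposited signal is CPM of the effective library size, per the file headers, and its steps gave whole reads for 100% of values (within 0.01 read), 15259545 to 22146030 per library. The authors' deposited table gives log2 ratios, p-values and FDRs of KO over control, and was quoted with no test of its own.

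Of 14647 rows, 21 named like dates were left out (0.134% to 0.204% of reads). The main test was limma 3.58.1 in R 4.3.3 on log2(signal + 0.5), genotype only, empirical Bayes with a trend, two-sided, Benjamini-Hochberg adjusted over 12855 genes whose signal averaged 1 or more; all 9 light chains passed that filter, and a call is an adjusted p under 0.05. Ratios were compared by two-sided exact permutation over all arrangements of the libraries, with a routine checked against scipy 1.17.1 on made-up values. Lists are counts and medians, with no set test. edgeR 4.0.16 and DESeq2 1.42.0 on recovered reads, other scalings, pseudocounts and filters, library weights and left-out libraries were alternatives. The fits were tested on simulated data with the spread of the WT libraries and no outlying library. The wider spread of the KO libraries was not simulated. Exon lengths come from GENCODE M21 (basic protein-coding transcripts inside the deposited bounds). The members, gene lists and tests were chosen with earlier results of these data known. Named genes are the members, Lmna and the 3 genes most like each cardiac chain by Pearson's r. Per list, up to 6 called in either fit were named, and, below 2 called, the 2 most abundant as well. Sln, Fgf12, Bmp10, Dhrs9, Kcnj3, Gja5, Kcna5 and Nr2f1 were named after their values were seen. Lists of general cardiomyocyte, atrial, ventricular, smooth muscle, fast skeletal, fetal and stress, fibroblast, endothelial, and macrophage and blood cell genes were used. Counting sets the precision of low values, such as 28 Myl7 reads over the WT libraries.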

Additional observations from a re-analysis of the deposited data

Results flagged for a closer look

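Of 30 groups of 5 libraries examined, chance flags about 1 in 20, and 2 were flagged because a single library lay far from the other 4. Myl12a signal was 1025 in Lmna KO replicate 5, and the next KO library was at 591. The Myl7 to Myl4 log2 ratio was -2.65 in Lmna KO replicate 4, and the next KO library was at -0.39.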

How the results depend on the processing

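Lmna was lower in KO hearts and called under all 22 alternatives, and Myl1, Myl2, Myl3, Myl6, Myl12a and Myl12b kept their direction without a call under all 22. Myl7 and Myl4 were higher in KO hearts under all 22. Myl7 passed the threshold under 6 of them: 6.89 by edgeR, 7.004 by DESeq2, 4.01 with library weights, 3.52 without both KO replicates 2 and 5, and without KO replicate 4 or 5; leaving out single libraries gave 4.04 to 5.68, with limma adjusted p from 4.97e-04 to 0.225. Myl4 passed under 3: 4.13 by DESeq2, 2.39 with library weights, and without KO replicate 4; leaving out single libraries gave 2.57 to 3.88. Myl9 reversed to 0.070 with library weights and to 0.12 without both KO replicates 2 and 5, with no call. The number of genes called, 26 in all libraries, was 14 with a mean signal of at least 5, 786 by DESeq2, 2280 with library weights, 1370 without both KO replicates 2 and 5, and 6 to 640 leaving out single libraries: 6 to 9 without any 1 WT library, 14 without KO replicate 2, 11 without KO replicate 3 and 640 without KO replicate 5.

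The ratio differences stayed past the threshold when any single library was left out, at 5.90 to 8.07 for Myl7 to Myl2, 2.92 to 4.495 for Myl4 to Myl3, 2.36 to 3.29 for Myl7 to Myl4 and 0.21 to 0.32 for Myl3 to Myl2. Without both KO replicates 2 and 5 they were 5.01, 2.28, 2.57 and 0.16 in the same order, and between group medians 7.47, 4.28, 2.80 and 0.27, in neither case past the adjusted threshold. Without both libraries the exact permutation p was 0.0357 to 0.0893, where 3 against 5 libraries allow a smallest p of 0.0179. With 0.5 added to both signals the differences stayed past the threshold, at 5.16, 3.39, 1.49 and 0.28. The atrial share differed by 0.583 to 1.32 percentage points leaving out single libraries, lowest without KO replicate 5. The replicate block gave the same 6.65, 3.58, 2.79 and 0.28, where 5 pairs allow no exact p under 0.0625. The replicate numbers are shared only as numbers: deviations of same-numbered libraries correlated at 0.182, -0.134, 0.171, 0.120 and 0.030, and replicate 3 alone correlated best with its own number. The replicate block called 35 genes across the table and no light chain. The cause of these changes was not tested. Depth limits Myl7 in WT libraries, at 1 to 10 reads each.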

Other observations

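The median of 7 genes of the fetal and stress program of heart muscle was highest in KO replicate 5, where 4 were above and 1 was below every WT library. Of all genes, 40.7% were above and 40.4% below every WT library in that replicate. None of the 7 was called in all 10 libraries, with a median log2 change of 0.99, and without Lmna KO replicate 5 the median was 0.49 and 3 rose. In the fit without that replicate 4.98% of all genes were called, and 2.27% were called higher. Ankrd1, a stress-responsive ankyrin repeat protein, was 1.18 higher (limma adjusted p = 0.0219), Myh7 1.66 higher (limma adjusted p = 0.0267), and Tnni1, the slow skeletal troponin I of the fetal heart, 1.46 higher (limma adjusted p = 0.0300). Tnni1 was 27.3, 15.3, 32.3, 13.6 and 47.5 in KO replicates 1 to 5, and 3.29 to 10.03 in WT libraries.

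Markers of other heart cells were read in the same fits. None of 9 fibroblast markers was called with or without KO replicate 5, with medians of -0.44 and 0.033. Their median log2 difference from the WT mean was 0.17, 0.27, 0.17, -0.36 and -2.17 in KO replicates 1 to 5. In KO replicate 5, 7 of the 9 were below and 1 above every WT library, against 40.4% and 40.7% of all genes. The collagen Col3a1 was 127 in KO replicate 5, against 2018 to 3274 in the other KO libraries and 2552 to 3307 in WT libraries, and the proteoglycan Dcn averaged 1075 ± 281 in KO hearts and 729 ± 17.4 in WT hearts (SD, n = 5 each). Of 9 endothelial markers none was called in all 10 libraries (median -0.17). Without KO replicate 5 Vwf, von Willebrand factor, rose by 0.61 (limma adjusted p = 0.0280) and Kdr, a receptor of vascular endothelial growth factor, fell by 0.55 (limma adjusted p = 0.0210), with a list median of -0.065. That fit called 4.98% of all genes. None of 7 macrophage and blood cell markers was called with or without KO replicate 5, with medians of 0.063 and 0.20. The median log2 difference of these 7 from the WT mean was 0.17, 0.52, 0.08, 0.06 and -0.75 in KO replicates 1 to 5. In KO replicate 5, 5 of the 7 were below and 2 above every WT library. Csf1r averaged 64.7 ± 18.9 in KO hearts and 69.1 ± 3.82 in WT hearts, and Lyz2 52.2 ± 13.1 in KO hearts and 48.8 ± 3.88 in WT hearts. Of the fast skeletal markers, Mybpc2 averaged 23.3 ± 5.68 in KO hearts and 23.7 ± 6.96 in WT hearts, and Casq1 11.8 ± 7.35 in KO hearts and 17.1 ± 4.55 in WT hearts.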
